A study of Danio rerio with 8 samples.

Results

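The inducible heat shock genes hsp70.1 (ENSDARG00000029688), hsp70.3 (ENSDARG00000021924), HSP90AA1 (ENSDARG00000024746) and HSPB1 (ENSDARG00000041065) were followed in whole zebrafish (Danio rerio) embryos after knockdown of ddx3xb, a gene for a DEAD-box RNA helicase. These 4 genes were chosen by symbol, matched without regard to case, from the 33737 Ensembl gene identifiers of the deposited tables. Each symbol matched 1 identifier. The choice was made with their values in these tables known, in particular their fall in knockdown embryos at 6 hours post fertilization (hpf), so what follows describes that fall and does not test it.

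Heat shock genes code for molecular chaperones, proteins that help others to fold or keep them from clumping. HSP70 proteins bind unfolded stretches in cycles of ATP hydrolysis, HSP90 proteins finish the folding of client proteins such as kinases and hormone receptors, and small heat shock proteins such as HSPB1 hold unfolding proteins without using ATP. After heat or other protein damage, the transcription factor HSF1 binds short elements in the promoters of the inducible copies and switches them on, whereas constitutive copies such as HSPA8 are transcribed in unstressed cells too. In zebrafish, promoters of inducible hsp70 genes are widely used to drive transgenes by a warm-water pulse.

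The study sequenced poly(A) RNA of embryos injected with a morpholino, a synthetic antisense oligomer that blocks translation or splicing of its target. The 4 groups used here were ddx3xb morphants at 6 hpf, control embryos at 6 hpf, ddx3xb morphants at 2 hpf and control embryos at 2 hpf, with 2 libraries each. Titles of the control libraries name a control morpholino, while their genotype label reads wild type. For 1 morphant library at 6 hpf the genotype label reads ddx4xb and the title ddx3xb, and the title was followed. The sources used here do not give the strain, the morpholino dose or the number of embryos per library, and embryos at 4 hpf were not analysed here.

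Each deposited table gave a gene 1 value that stands for both libraries of its group, in RPKM (reads scaled by gene length and by the mapped reads of the library). No difference below therefore has an error, a p-value or a replicate check. A gene was compared where any table gave it 1 RPKM or more (16217 genes, all 4 heat shock genes among them). The measure was the log2 ratio of (RPKM + 1), in which changes at low levels come out too small. The words rose, fell, higher and lower are kept for ratios of 2-fold or more when they stand for a call. Relative to the deepest library, steps in the low values put the other depths between 0.490 and 0.935. For 238 genes with low values, 1 RPKM stood for a median of 51.8 reads in knockdown and 60 reads in control embryos at 6 hpf, and of 80.4 reads in knockdown and 100 reads in control embryos at 2 hpf. The heat shock genes need not share that read worth. The RPKM sum was 731302 in knockdown and 431798 in control embryos at 2 hpf, and 473849 in knockdown and 461376 in control embryos at 6 hpf. The targeted transcript ddx3xb stood at 322 RPKM in knockdown and 141 RPKM in control embryos at 6 hpf, and at 251 RPKM in knockdown and 274 RPKM in control embryos at 2 hpf. A morpholino need not lower its target's RNA, so these levels are no check of the labels.

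At 6 hpf all 4 heat shock genes were lower in knockdown than in control embryos, the HSP70 and HSP90 genes to between 6.19% and 7.91% of the control RPKM and HSPB1 to 33.0% of it. The falls ranged from -3.92 to -1.60 on the log2 scale with a median of -3.40, beside a median of 0.20 over all genes compared. Among all genes 7.87% were lower and 8.72% higher at this age, shares printed as background only since the 4 genes were chosen for this contrast. Both shares depended on scaling, as higher genes made up 52.5% of those called as deposited but 24.1% after rescaling by the median ratio and 41% with quantile normalization.

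The HSP70 genes hsp70.1 and hsp70.3 are close neighbours. In the RefSeq gene table of the assembly GRCz12tu, hsp70.1, hsp70.2 and hsp70.3 follow each other on chromosome 3. Copies of hsp70 that are alike in sequence can share reads wherever they lie, so that single copies are uncertain. Their sequences were not compared here. At 6 hpf hsp70.3 stood at 11.5 RPKM in knockdown and 146 RPKM in control embryos, a log2 ratio of -3.55 and a 12.6-fold lower RPKM. At 2 hpf it stood at 2.01 RPKM in knockdown and 2.58 RPKM in control embryos (log2 ratio -0.25). Its knockdown level at 6 hpf thus lay between the low level of both groups at 2 hpf and the control level at 6 hpf.

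The weaker copy, hsp70.1, showed the same order of groups at 6 hpf. It stood at 1.45 RPKM in knockdown and 22.4 RPKM in control embryos at 6 hpf, a log2 ratio of -3.26 and a 15.5-fold lower RPKM. At 2 hpf it was close to 0 in both groups, with 0.103 RPKM in knockdown and 0.0844 RPKM in control embryos. At values this low counting error is large, and no difference between the groups at 2 hpf was detectable at this depth. The level of hsp70.3 was 7.96 times that of hsp70.1 in knockdown and 6.51 times in control embryos at 6 hpf. Both are ratios of RPKM, which is per length, and no ratio is given at 2 hpf, where hsp70.1 was near 0.

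HSP90AA1 codes for a cytosolic HSP90 chaperone of the inducible alpha type and had the deepest fall of the 4 genes. At 6 hpf it stood at 14.3 RPKM in knockdown and 230.3 RPKM in control embryos, a log2 ratio of -3.92 and a 16.2-fold lower RPKM. In control embryos 303 identifiers were at least as high as HSP90AA1 at 6 hpf (itself included), and in knockdown embryos 5400. At 2 hpf the order of the groups was the other way round, with 1.34 RPKM in knockdown and 0.801 RPKM in control embryos, a log2 ratio of 0.38 that is short of 2-fold. At 6 hpf 4 of the 16217 genes compared had a lower ratio of (RPKM + 1) than HSP90AA1, 24 than hsp70.3 and 42 than hsp70.1. These ranks rest on the values by which the genes were chosen. The order of hsp70.1 and hsp70.3 depended on the added 1 RPKM. With 0.1 RPKM added in its place, the log2 ratio was -3.86 for hsp70.1 and -3.65 for hsp70.3.

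HSPB1, the small heat shock protein gene also known as hsp27, differed from the other members in level and in course. It was by far the most abundant, with 492 RPKM in knockdown and 1489 RPKM in control embryos at 6 hpf, and its log2 ratio of -1.60 was the smallest fall of the group, a 3.03-fold lower RPKM. In control embryos 24 identifiers were at least as high at 6 hpf, itself included, and in knockdown embryos 97. HSPB1 made up 94.8% of the summed RPKM of the 4 genes in knockdown and 78.9% in control embryos at that age.

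At 2 hpf HSPB1 was the only one of the 4 past 2-fold between knockdown and control, and the call was marginal. It stood at 0.976 RPKM in knockdown and 3.10 RPKM in control embryos, a log2 ratio of -1.05, and 0.943% of all genes compared were lower and 0.506% higher at that age. The ratio came to -0.93 after rescaling by the median ratio and to -0.88 with quantile normalization, both short of 2-fold. The split of all calls also turned with scaling, with 34.9% of them higher as deposited, 55.6% after rescaling by the median ratio and 58.1% with quantile normalization.

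**Figure D1:**
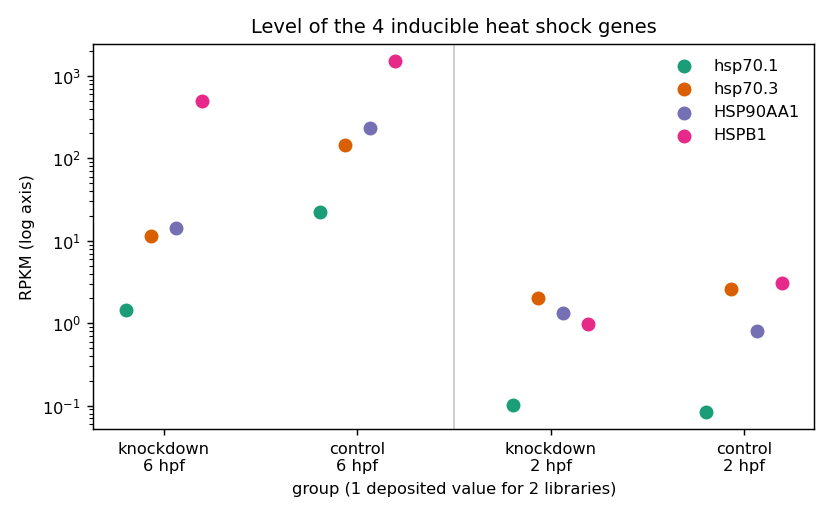
RPKM (log axis) of hsp70.1, hsp70.3, HSP90AA1 and HSPB1 in the 4 groups, 1 point per gene and group, each the deposited value for 2 libraries with no error. At 6 hpf all 4 genes lie lower in knockdown than in control embryos, and at 2 hpf all lie at or below 3.10 RPKM.

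Over time all 4 genes rose in both arms. The knockdown rise of hsp70.1 was the weakest (log2 ratio 1.15) and fell short of 2-fold with a pseudocount of 5 RPKM (0.34) and with quantile normalization (0.71). In knockdown embryos the log2 ratio of 6 hpf over 2 hpf ran from 1.15 to 7.96 with a median of 2.38, against 4.43 to 8.50 with a median of 6.18 in control embryos. Among all genes compared 25.5% rose from 2 to 6 hpf in knockdown and 27.5% in control embryos, and 13% fell in knockdown and 28% in control embryos. These splits depended on scaling. Genes that rose made up 66.2% of those called in knockdown as deposited and 50% with quantile normalization, and in control embryos 49.5% as deposited and 65.9% with median ratio rescaling. The comparisons over time share the tables at 6 hpf with the knockdown comparison, so they do not add independent evidence on the fall.

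In knockdown embryos HSPB1 kept a larger share of the control gain in level between the ages than the other members. Levels at 2 hpf were low, so this share nearly restates the knockdown percentage of control RPKM at 6 hpf. That percentage was 6.47% for hsp70.1, 7.91% for hsp70.3, 6.19% for HSP90AA1 and 33.0% for HSPB1. The gain is therefore not a further trait that sets HSPB1 apart. From 2 to 6 hpf hsp70.1 gained 1.35 RPKM in knockdown and 22.3 RPKM in control embryos, so that the knockdown gain was 6.03% of the control gain. The same share was 6.64% for hsp70.3 and 5.63% for HSP90AA1. For HSPB1, which gained 491 RPKM in knockdown and 1486 RPKM in control embryos, it was 33.0%. In fold of RPKM, HSPB1 rose 504-fold in knockdown and 479.9-fold in control embryos, since its level at 2 hpf was lower in knockdown by nearly the same factor as at 6 hpf. HSP90AA1 rose 10.6-fold in knockdown and 287-fold in control embryos. These folds divide by low values at 2 hpf that have no error. They were 0.976 RPKM in knockdown and 3.10 RPKM in control embryos for HSPB1, and 1.34 and 0.801 RPKM for HSP90AA1. The HSPB1 difference at 2 hpf was short of 2-fold with a pseudocount of 5 RPKM and under both rescalings.

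Many genes that are low at 2 hpf and present at 6 hpf were lower in knockdown embryos. A class of 1430 late-rising genes was formed from the mean of both arms (below 5 RPKM early, 5 RPKM or more late, and a ratio of 6 hpf over 2 hpf of 4-fold or more). All 4 heat shock genes met these limits, hsp70.1 only through its control level of 22.4 RPKM at 6 hpf. Because a high level in 1 arm alone can bring a gene into the class, the class holds genes that differ between the arms by its making. Its shares are a description. Of this class 34.5% were lower and 6.36% higher in knockdown at 6 hpf, with a median log2 ratio of -0.54 and quartiles of -1.41 and 0.10. At 2 hpf 0.21% of the class were lower, among them HSPB1, and 0.909% higher. The ratio of HSPB1 was undercut by 302 genes of the class, that of hsp70.1 by 42, that of hsp70.3 by 24 and that of HSP90AA1 by 4. Falls of at least 8-fold, a limit chosen after the values were seen, were found for 3 of the 4 genes. They were found for 65 of the 1430 genes of the class and for 65 of the 16217 genes compared (0.401%). All such falls thus lay in the class.

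**Figure D2:**
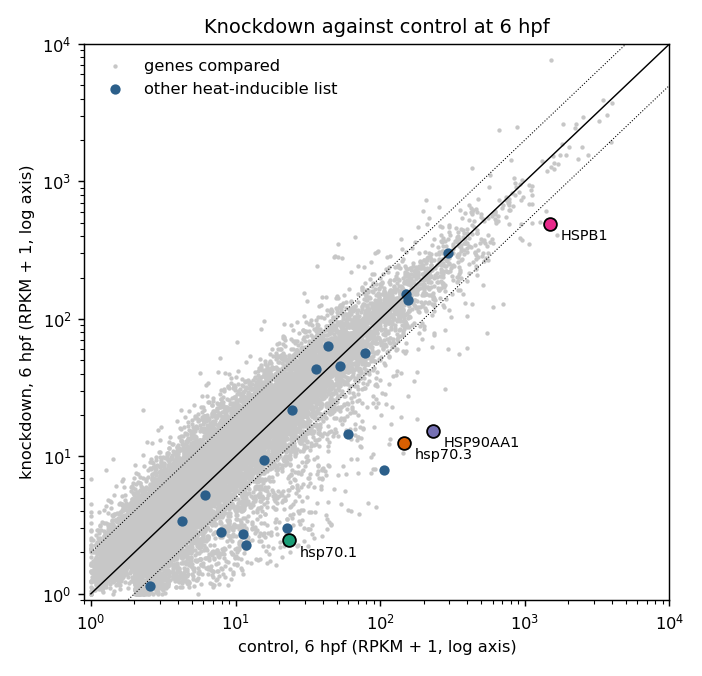
RPKM + 1 (log axes) at 6 hpf in knockdown embryos (vertical) against control embryos (horizontal) for the 16217 genes compared in grey, the list of other heat-inducible genes in blue and the 4 named genes in colour. The solid line marks equal levels and the dotted lines 2-fold; hsp70.1, hsp70.3 and HSP90AA1 lie at the lower edge of the grey cloud, and HSPB1 lies among the most abundant transcripts below the lower dotted line.

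Other genes known to be induced by heat were read from a list of 34 symbols, which matched 20 further identifiers, 18 of them compared. Of these 18, 7 were lower and none was higher in knockdown at 6 hpf. The median log2 ratio of the 18 was -0.42 beside 0.20 over all genes. Among the 7 are the HSP70 copies hsp70l and hspa1b, which may share reads with hsp70.1 and hsp70.3, so the 7 are not all separate observations. The share lower was 7.87% and the share higher 8.72% over all genes compared. In the late-rising class 34.5% were lower and 6.36% higher. That class is no matched background, since the list also holds genes outside it. One is dnajb1b, at 101 RPKM in knockdown and 128 RPKM in control embryos at 2 hpf. Whether the count is particular to heat-inducible genes was not tested. At 2 hpf none of the 18 was past 2-fold, with a median of -0.06 beside -0.12. The lower genes covered several chaperone functions. SERPINH1 (ENSDARG00000019949), which codes for the collagen chaperone HSP47 of the endoplasmic reticulum, stood at 6.93 RPKM in knockdown and 106 RPKM in control embryos, and a second identifier with that symbol (ENSDARG00000075954) at 1.83 RPKM in knockdown and 6.89 RPKM in control embryos. HSPH1, a large HSP70-like exchange factor, stood at 1.27 RPKM in knockdown and 10.9 RPKM in control embryos. AHSA1, an activator of the HSP90 ATPase, stood at 1.73 RPKM in knockdown and 10.2 RPKM in control embryos, and HSPE1, the mitochondrial co-chaperonin, at 13.6 RPKM in knockdown and 59.3 RPKM in control embryos.

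Further HSP70 identifiers were lower too. On the list, hsp70l stood at 1.99 RPKM in knockdown and 21.8 RPKM in control embryos at 6 hpf (log2 ratio -2.93), and hspa1b at 0.132 RPKM in knockdown and 1.56 RPKM in control embryos (-1.17). HSPA2 (ENSDARG00000092362), named after its values were seen, stood at 2.36 RPKM in knockdown and 26.6 RPKM in control embryos (-3.04). Reads shared among these copies and hsp70.1 and hsp70.3 cannot be told apart in these tables, so the identifiers do not count as separate observations.

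Other genes of the list stayed short of 2-fold. DNAJB1, the HSP40 partner of HSP70, is represented by dnajb1b, which stood at 151 RPKM in knockdown and 149.9 RPKM in control embryos at 6 hpf. HSPD1, the mitochondrial chaperonin that HSPE1 caps, stood at 137 RPKM in knockdown and 154 RPKM in control embryos. BAG3, a cochaperone induced with HSP70, stood at 2.37 RPKM in knockdown and 3.30 RPKM in control embryos, and STIP1, which bridges HSP70 and HSP90, at 62.1 RPKM in knockdown and 42.3 RPKM in control embryos. Levels of dnajb1b, HSPD1 and STIP1 were already between 53.0 and 128 RPKM at 2 hpf in both groups. The level at 2 hpf did not sort the whole list, however. HMOX1 stood at 0.0723 RPKM in knockdown and 0.0764 RPKM in control embryos at 2 hpf. At 6 hpf HMOX1 stood at 4.22 RPKM in knockdown and 5.14 RPKM in control embryos, short of 2-fold. HSPE1, which was lower at 6 hpf, already stood at 10.6 RPKM in both groups at 2 hpf. hsp90aa1.1 (ENSDARG00000010478), a second HSP90 alpha identifier that RefSeq places beside hsp90aa1.2 on chromosome 20, stayed under 1 RPKM in every group and was not compared, with 0.162 RPKM in knockdown and 0.953 RPKM in control embryos at 6 hpf.

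The constitutive HSP70 and HSP90 genes were split at 6 hpf. Of 13 compared, 2 were lower and 2 were higher, beside 7.87% lower and 8.72% higher among all genes. The median log2 ratio was -0.08. HSPA8 (ENSDARG00000068992), the main constitutive HSP70 of the cytosol, stood at 1199 RPKM in knockdown and 1425 RPKM in control embryos, and HSP90AB1, the constitutive HSP90, at 490.5 RPKM in knockdown and 933 RPKM in control embryos, a log2 ratio of -0.93. The 2 lower ones were a second HSPA8 identifier (ENSDARG00000037403), with 0.793 RPKM in knockdown and 13.8 RPKM in control embryos, and 1 of 2 HSPA4 identifiers (ENSDARG00000004754), with 15.3 RPKM in knockdown and 37.2 RPKM in control embryos. That second HSPA8 identifier is listed by its symbol only. At 2 hpf it stood at 0.117 RPKM in knockdown and 0.148 RPKM in control embryos, against 512 and 496 RPKM for the abundant one. Whether it shares reads with other HSP70 copies cannot be told. The 2 higher ones were chaperones of the endoplasmic reticulum. HSP90B1 stood at 129 RPKM in knockdown and 53.9 RPKM in control embryos, and HYOU1 at 67.7 RPKM in knockdown and 29.5 RPKM in control embryos. After rescaling by the median ratio the counts became 4 lower and none higher.

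Cochaperones gave calls in both directions. Of 21 compared at 6 hpf, 4 were higher and 2 lower in knockdown, beside 8.72% higher and 7.87% lower among all genes, and the median log2 ratio was 0.56 beside 0.20 over all genes. BAG5 stood at 23.5 RPKM in knockdown and 6.50 RPKM in control embryos and BAG4 at 55.4 RPKM in knockdown and 17.95 RPKM in control embryos, both genes for nucleotide exchange factors of the BAG family. The 2 lower ones were BAG2, an inhibitor of the ubiquitin ligase STUB1, with 0.173 RPKM in knockdown and 1.66 RPKM in control embryos, and UNC45B, a myosin chaperone that works with HSP90, with 3.01 RPKM in knockdown and 10.1 RPKM in control embryos. After rescaling by the median ratio, or with quantile normalization, 2 cochaperones were higher and 2 lower.

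None of the genes compared from the list of HSF1 pathway regulators was lower at 6 hpf. HSF1, the activator of the heat shock response, is represented by hsf1 with 24.3 RPKM in knockdown and 29.1 RPKM in control embryos at 6 hpf, a log2 ratio of -0.25. At 2 hpf hsf1 stood at 15.5 RPKM in knockdown and 17.1 RPKM in control embryos. HSF2 stood at 33.5 RPKM in knockdown and 22.2 RPKM in control embryos at 6 hpf, and the HSF1 inhibitor gene hsbp1b at 52.4 RPKM in knockdown and 40.7 RPKM in control embryos. Another identifier named for this inhibitor, HSBP1, stood at 3.43 RPKM in knockdown and 3.36 RPKM in control embryos at 6 hpf. Of 5 genes of this list compared none was lower and 1 was higher, beside 7.87% lower and 8.72% higher among all genes. The higher one was HSF2BP, at 2.48 RPKM in knockdown and 0.734 RPKM in control embryos. Its log2 ratio of 1.003 was at the limit of the call. HSF2BP is named for binding HSF2, and its listing does not make it a regulator of the heat shock response. RNA levels say nothing of whether the HSF1 protein was active.

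Of the remaining small heat shock protein genes, 9 identifiers matched a list of 13 symbols and 8 stayed under 1 RPKM in every group. The 1 compared, hspb11, stood at 4.78 RPKM in knockdown and 3.76 RPKM in control embryos at 6 hpf. Thus HSPB1 was the only abundant small heat shock protein transcript among those measured. Genes of other stress programmes gave mixed counts at 6 hpf, beside 8.72% higher and 7.87% lower among all genes compared. In the list for stress of the endoplasmic reticulum and the integrated stress response, 1 of 16 was higher and 1 lower (median 0.15). The higher one was CALR, with 49.1 RPKM in knockdown and 20.5 RPKM in control embryos. The lower one was DDIT3, a stress transcription factor, with 1.79 RPKM in knockdown and 6.51 RPKM in control embryos. In the oxidative stress list, 3 of 10 were higher and 1 lower (median 0.87). The higher ones, all close to 2-fold, were PRDX1 (log2 ratio 1.07), a second identifier with that symbol, prdx1 (1.08), and SQSTM1 (1.06). The lower one was the quinone reductase gene NQO1, with 9.94 RPKM in knockdown and 42.7 RPKM in control embryos.

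**Figure D3:**
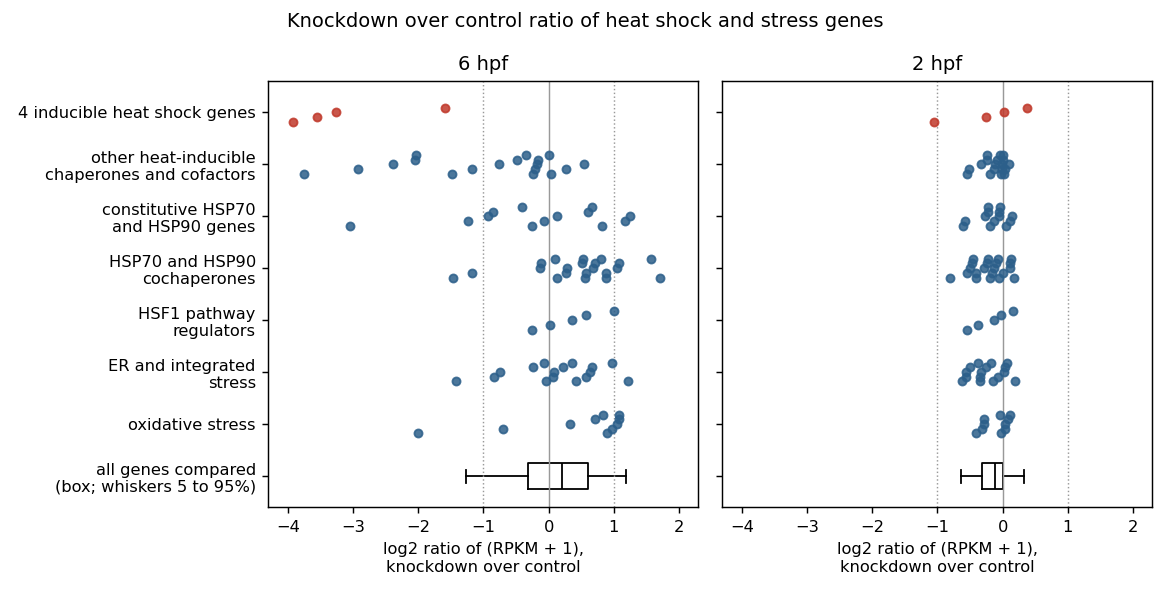
Log2 ratio of (RPKM + 1), knockdown over control, at 6 hpf (left) and 2 hpf (right), with 1 point per gene compared and a box with median, quartiles and 5 to 95% whiskers for all 16217 genes. Dotted lines mark 2-fold. At 6 hpf the 4 inducible heat shock genes lie between -3.92 and -1.60, and at 2 hpf between -1.05 and 0.38.

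Genes with the most similar profile were sought over the 4 groups among 11144 others with at least 5 RPKM in 1 table, as the Euclidean distance between log2(RPKM + 1) values centred on each gene's mean. With 4 values per gene, many genes lie close by, and the distance describes likeness in these tables alone. Nearest to HSP90AA1 among genes with a symbol was SERPINH1 (distance 0.32). It was followed by EGLN3, a prolyl hydroxylase gene, which stood at 14.8 RPKM in knockdown and 229 RPKM in control embryos at 6 hpf (0.40), the apolipoprotein gene apoc2 (0.47), fetub (0.50) and PFKFB3, a regulator of glycolysis (0.56). For hsp70.3 the nearest were the cadherin gene cdh6 (0.20), HKDC1 (0.25), si:ch211-217k17.8 (0.29), the mesoderm factor msgn1 (0.30) and the keratin gene krt17 (0.31). For hsp70.1 they were PLOD1, a collagen lysyl hydroxylase gene (0.08), mespab (0.11), si:dkey-126g1.9 (0.11), uox (0.13) and zgc:56585 (0.14).

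HSPB1 had other neighbours than the HSP70 and HSP90 genes, whose named neighbours also differed from each other. Its nearest were krt8 (0.32), zgc:193505 (0.75), krt5 (0.98), the cathepsin gene ctsll (1.01) and krt92 (1.05). Of these 5, 3 are keratin genes, but the share of keratin genes among genes at similar levels was not counted. Only krt8 lay as near as the named neighbours of the other members, whose distances reached 0.56 at most. The keratin krt8 stood at 374 RPKM in knockdown and 952 RPKM in control embryos at 6 hpf, and at 0.730 RPKM in knockdown and 2.08 RPKM in control embryos at 2 hpf, log2 ratios of -1.34 at 6 hpf and -0.83 at 2 hpf, the second short of 2-fold. HSP90AA1 was in place 221 among the genes near HSPB1, hsp70.3 in place 481 and hsp70.1 in place 1001. Seen from hsp70.1, hsp70.3 was in place 134, HSP90AA1 in place 1118 and HSPB1 in place 10473. From hsp70.3, hsp70.1 was in place 68, HSP90AA1 in place 120 and HSPB1 in place 5862. From HSP90AA1, hsp70.3 was in place 29, hsp70.1 in place 188 and HSPB1 in place 1753. By this distance the HSP70 and HSP90 genes were thus not all close to each other. The added 1 RPKM makes changes at low levels smaller, so the distance also depends on level. In RPKM, hsp70.1 stood at 6.47% and HSP90AA1 at 6.19% of control at 6 hpf. From 2 to 6 hpf hsp70.1 rose 14.0-fold in knockdown and 265-fold in control embryos, and HSP90AA1 10.6-fold and 287-fold.

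**Figure D4:**
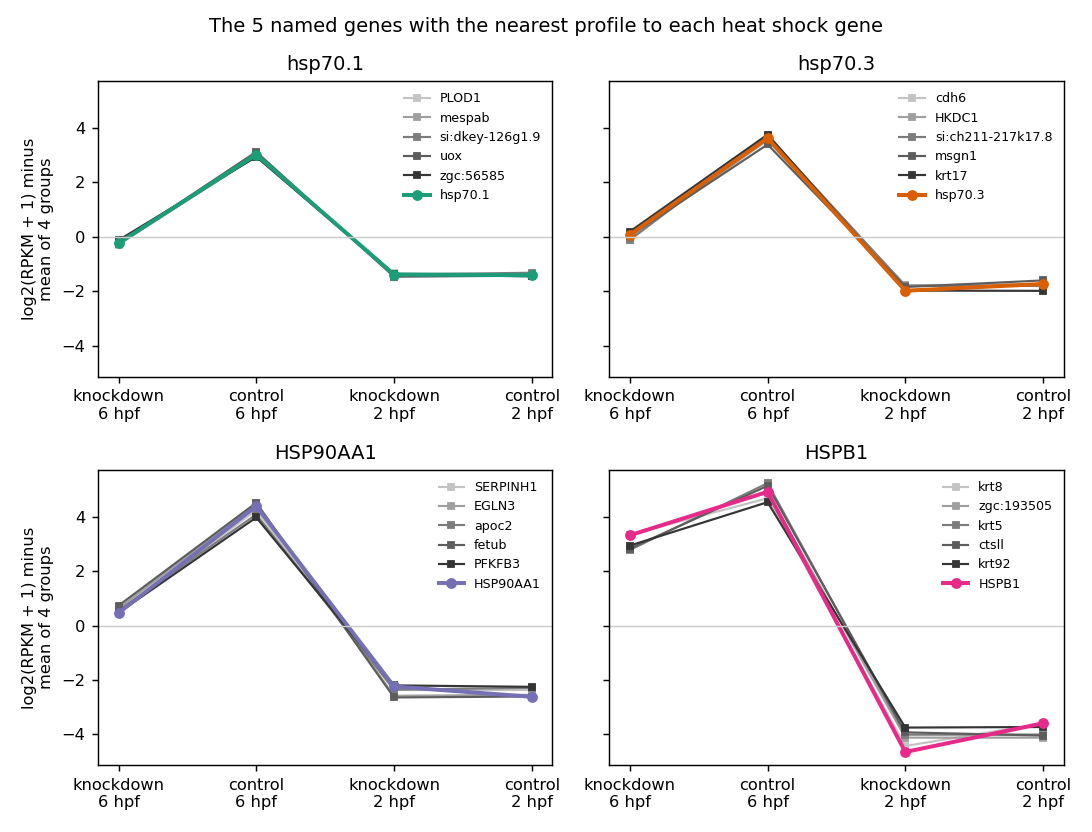
Log2(RPKM + 1) minus the gene's mean over the 4 groups, for each heat shock gene (colour) and the 5 named genes with the nearest profile (grey); lines join the groups only to guide the eye. The HSP70 and HSP90 genes drop steeply between control and knockdown at 6 hpf. HSPB1 and its neighbours lie above their means in both groups at that age, yet they too are lower in knockdown. HSPB1 stands at 492 RPKM in knockdown and 1489 RPKM in control embryos, and krt5 at 127 RPKM in knockdown and 701 RPKM in control embryos.

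Markers of several embryonic tissues moved with the fall at 6 hpf, and their part in it was not tested. In whole embryos, fewer cells of a type and less RNA per cell cannot be told apart. Of 11 markers of the enveloping layer, the flat epithelium that covers the blastoderm, 9 were lower in knockdown and none higher, their summed level was 1781 RPKM in knockdown and 4828 RPKM in control embryos, and none was at 0. Of the yolk syncytial layer markers 5 of 6 compared were lower. They summed to 103 RPKM in knockdown and 287 RPKM in control embryos over 7 identifiers, none at 0. For both lists, the share lower was 7.87% over all genes compared and 34.5% in the late-rising class. The shares higher were 8.72% and 6.36%. The markers with a higher level in knockdown, both short of 2-fold, were grhl3 of the enveloping layer, with 121 RPKM in knockdown and 64.2 RPKM in control embryos, and mxtx2 of the yolk syncytial layer, with 48.6 RPKM in knockdown and 29.5 RPKM in control embryos. At 2 hpf the enveloping layer sum was 2.29 RPKM in knockdown and 2.62 RPKM in control embryos, and that of the yolk syncytial layer 0.866 RPKM in knockdown and 0.367 RPKM in control embryos.

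Markers of muscle and lens, tissues in which some heat shock genes are known to be expressed later in development, and of blood were low. At 6 hpf the muscle markers summed to 1.45 RPKM in knockdown and 2.1 RPKM in control embryos over 5 genes, with MYOG at 0 in both. MYF5 stood at 0.102 RPKM in knockdown and 1.11 RPKM in control embryos and MYOD1 at 0.0115 RPKM in knockdown and 0.334 RPKM in control embryos, whereas the creatine kinase genes ckma, at 0.823 RPKM in knockdown and 0.420 RPKM in control embryos, and ckmb, at 0.512 RPKM in knockdown and 0.237 RPKM in control embryos, lay the other way. Over 5 genes each, the lens markers summed to 0.546 RPKM in knockdown and 0.876 RPKM in control embryos, and the erythroid markers to 0.195 RPKM in knockdown and 0.466 RPKM in control embryos. Of 15 maternal transcripts 8 were higher and none lower in knockdown at 6 hpf (median log2 ratio 1.16). Of 12 mesendoderm genes 4 were lower and none higher (median -0.40). Over all genes compared 8.72% were higher and 7.87% lower, and in the late-rising class 6.36% were higher and 34.5% lower. The mesendoderm count lay near the share of the late-rising class. Maternal, germ layer and extraembryonic transcripts were thus all present, which is a description and no check of the labels' tissue, whole embryos.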

How the data were processed

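Per the labels' protocols, embryo RNA was extracted with TRIzol, selected for poly(A) on beads and made into stranded libraries with a KAPA kit. Named in the submitters' processing notes are HISAT2 2.0.5, SAMtools 1.9, Trimmomatic 0.36, cutadapt 1.13 and build Zv9. For the counter, its strand setting and the annotation, a tool or version is not given in the sources used here. RPKM values were deposited by the authors in 4 tables, 1 per group of 2 libraries. The tag and age in a table's name gave its group. RPKM divides by all mapped reads, so a few strong features lower all other values of a table.

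The 4 members and all gene lists were chosen with earlier results of these data known. With 1 value per group, the planned limma fit could not be run. Log2 ratios of (RPKM + 1) were taken where any table gave 1 RPKM or more and called at 2-fold, in Python 3.11.15 with pandas 2.3.3, and tested on simulated data. The naming rule took the members, ddx3xb, genes past 2-fold in the heat shock and chaperone lists, up to 4 genes per other list with the largest ratio at 6 hpf, and up to 5 genes with the nearest profile per member. Some genes of the lists are named without passing 2-fold, fall outside the rule and were picked after their values were seen. They are dnajb1b, HSPD1, BAG3, STIP1, HMOX1, hsf1, HSF2, hsbp1b, HSBP1, the more abundant HSPA8 identifier, HSP90AB1, hsp90aa1.1, hspb11, grhl3, mxtx2 and MYOG. Symbols matched 21939 of 33737 identifiers. Read worth came from single-read steps under 0.3 RPKM. Coordinates and sequences are not given. Other settings tried were median ratio rescaling, quantile normalization, a pseudocount of 0.1 or 5 RPKM, and a filter of 5 RPKM or none.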

Additional observations from a re-analysis of the deposited data

How the results depend on the processing

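No paired analysis was possible because each table holds 1 value per group, and leaving out a replicate could not be run for the same reason. At 6 hpf all 4 heat shock genes stayed lower by at least 2-fold under both other pseudocounts and both rescalings, with log2 ratios between -4.23 and -3.61 for HSP90AA1, -3.85 and -3.19 for hsp70.3, -3.86 and -2.09 for hsp70.1, and -1.91 and -1.49 for HSPB1. At 2 hpf the HSPB1 ratio fell short of 2-fold with a pseudocount of 5 RPKM (-0.44), rescaling by the median ratio (-0.93) and quantile normalization (-0.88). The rise of hsp70.1 over time in knockdown fell short with a pseudocount of 5 RPKM (0.34) and quantile normalization (0.71).

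Counts over all genes moved by more than 1.5 times as follows, and the cause was not tested. At 2 hpf 82 genes were higher and 153 lower, against 287 and 582 with a pseudocount of 0.1 RPKM, 33 and 19 with 5 RPKM, 125 and 100 with median ratio rescaling, 129 and 93 with quantile normalization, and 96 lower with a filter of 5 RPKM. At 6 hpf 1414 were higher and 1277 lower, against 2875 and 1925 with a pseudocount of 0.1 RPKM, 459 and 539 with 5 RPKM, and 632 and 1985 with median ratio rescaling, under which the median log2 ratio of all genes was -0.05 and not 0.20. Over time in knockdown 4132 rose and 2107 fell, against 2119 and 1194 with a pseudocount of 5 RPKM and 3214 fallen with quantile normalization. Over time in control 4453 rose and 4547 fell, against 2374 and 2641 with a pseudocount of 5 RPKM and 2898 fallen after rescaling by the median ratio.

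The 7 lower genes of the heat-inducible list stayed within 1.5 times that count under all 6 alternatives. Of the constitutive HSP70 and HSP90 genes 0 were higher and 4 lower after rescaling by the median ratio, against 2 and 2. Of the cochaperones 2 were higher, against 4, with a pseudocount of 5 RPKM and under both rescalings, and 0 were lower with that pseudocount and 1 with a filter of 5 RPKM, against 2. Depth limits hsp70.1 at 2 hpf most, as both values lie near 0.1 RPKM.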
